A study of Rattus norvegicus with 20 samples.

Results

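Kidneys labelled RM were compared with kidneys labelled Sham in a rat study of trauma-induced acute kidney injury. The members were all libraries with either disease label, 12 of the 20 in the series, with 6 RM and 6 Sham libraries. RM is taken here as rhabdomyolysis, the breakdown of skeletal muscle, in kidneys that do not carry the combined label RM-HS; the labels print the letters only. The 5 HS libraries, whose letters the labels do not spell out either, serve below as another comparator of the same RM libraries, and the 3 RM-HS libraries entered the fit to estimate the spread and were not tested against RM. Each library came from kidney tissue frozen in nitrogen. The sources used here do not give strain, sex, age, the way the injury was made or the time after it, and no genetic change or further agent is named for any group. The study's design text counts 5 RM kidneys among 19 samples, against 6 among 20 in the labels. The labels do not say whether the libraries are of different animals; if they share animals, the p-values describe technical spread alone.

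Damaged muscle releases myoglobin, phosphate and potassium. Myoglobin is small enough to be filtered by the glomerulus and is taken up by proximal tubule cells, where haem oxygenase opens the haem ring and frees iron. Free haem also removes the repressor BACH1 from antioxidant response elements, the short DNA sites that NRF2 with a small MAF partner uses to switch on genes of iron storage, haem breakdown and thiol defence.

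Values are normalised read counts: the authors scaled each library by a DESeq2 size factor. The RM and Sham libraries held between 45 and 103 M reads in the table, of which the 14 mitochondrial genes took between 42.4% and 51.8%, which left between 23.3 and 51.9 M other reads. All Sham libraries and RM 1 carry names that begin with R, whereas RM 2 to RM 6 carry names that begin with S; the meaning of the letter is not stated. Sham 2 to Sham 5 had between 43.1 and 396 normalised reads of Slc5a2, which encodes SGLT2 of the early proximal tubule, against 6791 in Sham 1 and 7863 in Sham 6. Results below are therefore given with all Sham libraries and, where it matters, with Sham 1 and Sham 6 as the only controls. The summed level of 7 early proximal tubule markers was 119940, 159680 and 191650 (lowest, median and highest library) in RM kidneys, against 23161, 37408 and 157650 in Sham kidneys. The 4 late proximal tubule markers found in the table went the other way. They summed to 46396, 56433 and 88530 in RM kidneys and 65489, 80165 and 115410 in Sham kidneys. Of these 4, 1 was higher and 2 lower over all Sham libraries, and 1 was higher and 0 lower with both control sets. In whole tissue, fewer cells of a type and less RNA per cell cannot be told apart.

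RM kidneys differed from Sham kidneys across a large part of the transcriptome. Of 15954 rows tested, 8455 passed an adjusted p of 0.05 (53%), with 4178 higher (26.2%) and 4277 lower (26.8%) in RM, by limma with Benjamini-Hochberg adjustment. These shares are the background for every count of a gene list below. Of all rows, 4106 (25.7%) had no overlap between the groups, 1562 (9.79%) passed and were at least 2-fold higher, and 1595 (10%) passed and were at least 2-fold lower, 3157 (19.8%) in all. Against Sham 1 and Sham 6 alone, 5250 rows passed (32.9%), and 4835 rows (30.3%) changed the same way with both control sets, of which 2639 (16.5%) were higher and 2196 (13.8%) lower. With the name letter as a covariate, 4551 rows passed. Fold changes are given as log2 of the normalised read count plus 1, RM over Sham, with the standard error of the fit; on this scale the change of weakly expressed genes is understated. The median change over all rows was -0.04; under upper quartile scaling it moved by -0.14, and 3249 rows passed as higher and 5529 as lower.

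Among rows with a symbol, a mean of at least 50 normalised reads in the higher group and a change that passed the same way against both control sets with no overlap, the 8 largest rises were those of Slc7a11, Lypd8, Hmox1, Lexm, Vgf, Fosl1, Hephl1 and Fgf23. Lexm had 1053, 2936 and 4423 normalised reads in RM kidneys and 6.08, 12.3 and 29.1 in Sham kidneys. Vgf, the precursor of neuroendocrine peptides, had 73.2, 263 and 665 in RM kidneys and 0, 0 and 5.16 in Sham kidneys. Both genes separated the groups completely, and so did Lypd8, which encodes a membrane-anchored protein known from colon epithelium and had at least 109 normalised reads in RM kidneys and at most 5.16 in Sham kidneys. The 8 largest falls were those of Smim5, Rd3l, Smad9, Dok7, Hrh3, Tril, Trim29 and Synpo2l. Dok7, an adaptor of the receptor MUSK at the neuromuscular junction, had 2.08, 5.29 and 18.2 in RM kidneys against 114, 186 and 305 in Sham kidneys. Synpo2l, an actin-binding protein of striated muscle, had 3.8, 13 and 22.2 in RM kidneys against 172, 234 and 380 in Sham kidneys. Few reads were left in RM kidneys for some of these genes: Rd3l had 3 reads over all RM libraries and 341 over all Sham libraries, and Smim5 had 16 reads against 702. Trim29 had 104 reads against 1282. Trim29, a ubiquitin ligase of epithelia, changed by -4.46 ± 0.83 on the log2 scale (limma adjusted p = 0.00015) and by -3.81 without RM 5. The 5 skeletal muscle markers summed to 24.3, 146 and 171 in RM kidneys and 86.6, 151 and 495 in Sham kidneys; none was at 0 throughout, and 0 of the 3 that could be tested passed.

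Haem oxygenase and its repressor were both far higher in RM kidneys, while Alas1, of haem synthesis, was lower. Hmox1 (chromosome 19, 14508634 to 14515453, rn6), the enzyme that opens haem, had 109350, 164610 and 172380 normalised reads in RM kidneys and 400, 448 and 12908 in Sham kidneys. Every RM library stood far above every Sham library, and the high Sham value was that of Sham 6 alone. The difference was 7.64 ± 0.72 on the log2 scale (limma adjusted p = 7.3e-08); it was 8.45 without Sham 6 and 6.04 against Sham 1 and Sham 6, where it still passed. Over HS kidneys, where Hmox1 had 2468, 4316 and 36015, RM was higher by 4.76 ± 0.76 (limma adjusted p = 0.00015). Bach1, the haem-sensing repressor itself, had 5733, 8589 and 10587 normalised reads in RM kidneys against 803, 860 and 1009 in Sham kidneys. The groups lay far apart with little spread among Sham libraries, and the change was 3.22 ± 0.16 (limma adjusted p = 1.7e-11). The biliverdin reductases, which act next on the product of haem oxygenase, did not pass: the log2 difference was 0.01 ± 0.09 for Blvrb (limma adjusted p = 0.96) and -0.19 ± 0.18 for Blvra (0.37).

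**Figure D1:**
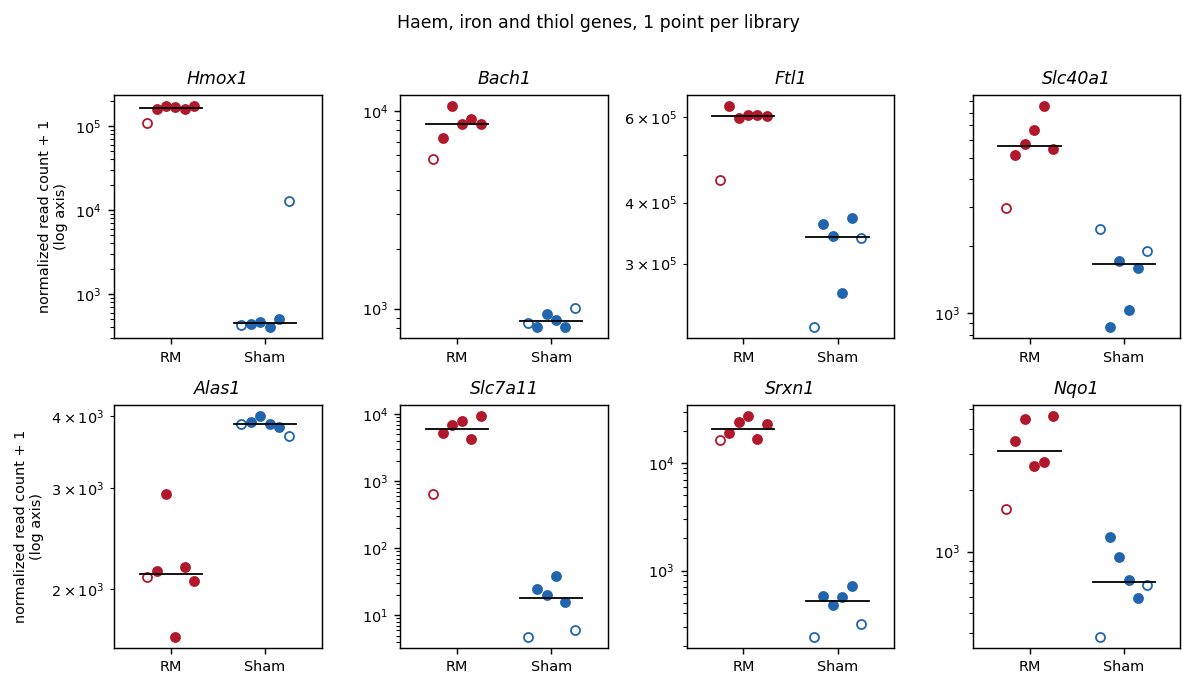
Normalised read counts plus 1 (log axis) of 8 genes of haem, iron and thiol metabolism in RM (left) and Sham (right) libraries, 1 point per library, with the group median as a black line and open circles for RM 1, Sham 1 and Sham 6. For Hmox1 the Sham points cluster near 448 except Sham 6 at 12908, and for Slc7a11 RM 1 lies at 651, below the other RM libraries but above every Sham library.

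Named genes of iron storage and export rose. Ftl1, the ferritin light chain, had 446050, 603230 and 630410 normalised reads in RM kidneys and 222250, 340250 and 372570 in Sham kidneys, with no overlap (0.89 ± 0.16, limma adjusted p = 0.00012). Fth1, the heavy chain, differed by 0.68 ± 0.20 (limma adjusted p = 0.0066), a call that was lost with the name letter as a covariate and without the filter on low values. Slc40a1, ferroportin, the only known iron exporter of cells, had 2979, 5629 and 8537 in RM kidneys and 863, 1659 and 2396 in Sham kidneys, again with no overlap (1.88 ± 0.28, limma adjusted p = 1.6e-05). Slc25a37, which brings iron into mitochondria, rose by 1.58 ± 0.14 (limma adjusted p = 4.6e-08), and Hephl1, a copper oxidase that acts on iron, had 36.6, 198 and 222 in RM kidneys against no more than 3.53 in any Sham library. Hp, haptoglobin, which binds free haemoglobin, rose by 2.84 ± 0.47 (limma adjusted p = 4.4e-05).

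Alas1, the rate-limiting enzyme of haem synthesis outside the red cell line, had 1652, 2126 and 2930 normalised reads in RM kidneys and 3688, 3876 and 4006 in Sham kidneys. The 6 Sham values lay close together and all above RM (-0.84 ± 0.12, limma adjusted p = 1.1e-05), and RM was also lower than HS (-0.70 ± 0.13). Steap3, which reduces iron taken up with transferrin, changed by -0.99 ± 0.18 (limma adjusted p = 0.00012). For Tfrc, the transferrin receptor, the log2 difference was -0.31 ± 0.19 (limma adjusted p = 0.18); it was -0.50 without Sham 2 and -0.75 against Sham 1 and Sham 6, and both of those passed. Over the whole list of haem and iron genes, 10 of 33 were higher and 9 lower, with a median change of -0.16 that was 0.09 against Sham 1 and Sham 6. Erythroid markers summed to 116060, 219120 and 303980 in RM kidneys and 68278, 98055 and 329340 in Sham kidneys, and their part in the haem genes was not tested.

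Thiol defence rose at several steps. Of 29 genes of NRF2, glutathione and thioredoxin, 21 were higher and 2 lower, with a median change of 0.54. Slc7a11, part of the exchanger that brings in cystine for glutathione, had 651, 6086 and 9529 normalised reads in RM kidneys and 3.8, 17.1 and 37.7 in Sham kidneys. RM 1 was the lowest RM library and still lay above all Sham libraries. The change was 8.26 ± 0.61 (limma adjusted p = 3.4e-09) and RM exceeded HS by 6.26 ± 0.64 (limma adjusted p = 1.6e-06). Srxn1, sulfiredoxin, which restores overoxidised peroxiredoxins, had 16421, 20906 and 27522 in RM kidneys and 242, 520 and 719 in Sham kidneys (5.51 ± 0.28, limma adjusted p = 2.2e-11). Txnrd1, thioredoxin reductase, rose by 2.88 ± 0.18, and Nqo1, a quinone reductase often used to read NRF2 activity, had 1618, 3127 and 4644 in RM kidneys against 381, 705 and 1182 in Sham kidneys (2.12 ± 0.33, limma adjusted p = 2.1e-05). None of these genes overlapped between the groups.

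The enzyme that starts glutathione synthesis showed small differences from all Sham libraries. Gclc, the catalytic subunit of its first enzyme, had a log2 difference of -0.08 ± 0.14 (limma adjusted p = 0.64). Gclm, the modifier subunit, changed by 0.39 ± 0.15 (limma adjusted p = 0.039). That call was lost on leaving out any 1 of RM 2 to RM 6, Sham 1, Sham 3 or Sham 6. The limma adjusted p was then between 0.0624 and 0.102. It was also lost with the name letter as a covariate, while against Sham 1 and Sham 6 the change was 0.79 and passed. Over HS kidneys, RM was higher by 0.59 ± 0.14 for Gclc (limma adjusted p = 0.0051) and by 1.02 ± 0.16 for Gclm (limma adjusted p = 0.00014). Pgd, an enzyme of the pentose phosphate pathway that supplies NADPH to the thiol systems, rose by 1.13 ± 0.14, and RM 1 was its lowest RM library by a wide gap.

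The immediate-early transcription factors were high together. Of 22 genes of the AP-1, ATF and small MAF list, 20 were higher and 0 lower, with a median change of 1.74. Fosl1, a late-rising FOS family member, had 362, 1510 and 2200 normalised reads in RM kidneys and 3.04, 9.43 and 42.1 in Sham kidneys, with no overlap (6.89 ± 0.48, limma adjusted p = 1.2e-09). Maff, a small MAF protein that can pair with NRF2 or BACH1, had 8357, 12307 and 12866 in RM kidneys and 397, 753 and 1378 in Sham kidneys (3.89 ± 0.22, limma adjusted p = 9.5e-11). Every RM library again lay above every Sham library. Fos rose by 3.05 ± 0.40 and Jun by 2.95 ± 0.17, and Crem, a cyclic AMP-responsive regulator, by 2.15 ± 0.12. Atf3, a stress-induced factor of the same family, rose by 6.24 ± 0.31.

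Of 22 genes of the EGR, NR4A, MYC and KLF list, 17 were higher and 2 lower (median 1.30). Egr1 rose by 2.60 ± 0.37, Myc by 4.22 ± 0.21 and Klf6 by 4.04 ± 0.23, and Zfp36, which shortens the life of cytokine mRNAs, by 2.94 ± 0.16. Klf15, a factor of fasting metabolism and the differentiated nephron, went the other way, with 421, 694 and 1220 in RM kidneys and 2401, 3538 and 4424 in Sham kidneys (-2.20 ± 0.25, limma adjusted p = 8e-07). It was also lower than in HS kidneys (-1.78 ± 0.27). In the list of MAP kinase feedback 13 of 17 genes were higher and 1 lower. Dusp8, a phosphatase of JNK and p38, had 1058, 1112 and 1893 in RM kidneys and 99.5, 140 and 174 in Sham kidneys (3.17 ± 0.16, limma adjusted p = 2.2e-11), whereas Dusp14, of the same family, changed by -1.42 ± 0.27 (limma adjusted p = 0.00022). Errfi1, an inhibitor of EGF receptors, rose by 1.83 ± 0.17.

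Promoters from RefSeq (build GRCr8) were read for the letters of 4 motifs, because the factors above and below bind them: the antioxidant response element core TGACNNNGC, the AP-1 site TGANTCA, the ATF/CREB palindrome TGACGTCA and the heat shock element (GAA, TTC and GAA, each 2 bases apart). Both strands of the 250 bases before each start were searched, in 27457 genes. The first 2 motifs can overlap in part of their letters. Over all genes searched, 9.51% of those with the antioxidant core also held the AP-1 letters. Of the tested genes, 10178 of 12961 symbols matched. One promoter is shown per motif, that of the list member with the largest rise that holds it; capitals mark the motif, which for Fosl1 and Hsph1 reads on the opposite strand. All 4 genes lie on the plus strand, at chr1:212183635-212183884 (Fosl1, antioxidant core 88 bases before the start), chr3:161064562-161064811 (Srxn1, AP-1 site 62 bases before), chr7:112792537-112792786 (Maff, ATF/CREB palindrome 51 bases before) and chr12:10427118-10427367 (Hsph1, heat shock element 36 bases before).
Fosl1: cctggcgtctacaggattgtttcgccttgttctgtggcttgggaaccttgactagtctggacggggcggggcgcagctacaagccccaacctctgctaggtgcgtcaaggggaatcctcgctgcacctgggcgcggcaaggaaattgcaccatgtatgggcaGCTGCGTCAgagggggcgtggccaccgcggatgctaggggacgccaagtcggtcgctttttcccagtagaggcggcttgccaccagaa
Srxn1: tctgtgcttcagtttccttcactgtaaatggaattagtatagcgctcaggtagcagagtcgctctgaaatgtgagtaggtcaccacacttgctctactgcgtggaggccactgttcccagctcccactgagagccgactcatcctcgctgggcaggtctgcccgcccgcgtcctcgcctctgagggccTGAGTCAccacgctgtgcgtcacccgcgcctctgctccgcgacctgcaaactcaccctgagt
Maff: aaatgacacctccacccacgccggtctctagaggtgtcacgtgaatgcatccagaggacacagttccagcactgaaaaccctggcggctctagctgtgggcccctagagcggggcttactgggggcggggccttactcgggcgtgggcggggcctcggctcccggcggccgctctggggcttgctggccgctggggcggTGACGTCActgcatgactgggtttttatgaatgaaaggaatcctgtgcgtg
Hsph1: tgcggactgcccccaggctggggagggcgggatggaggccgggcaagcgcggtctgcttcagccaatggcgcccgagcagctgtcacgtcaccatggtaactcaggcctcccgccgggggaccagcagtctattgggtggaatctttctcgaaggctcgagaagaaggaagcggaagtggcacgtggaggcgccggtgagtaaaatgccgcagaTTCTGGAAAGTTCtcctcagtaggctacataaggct
The antioxidant core was found in 8 of 25 matched NRF2, glutathione and thioredoxin genes (32%), among them Gclm and Txnrd1, against 12.7% of tested genes and 11% of all genes. In the haem and iron list it was found in 4 of 25 matched genes (16%), with Blvra among them. It was also found in 4 of 15 matched genes of the AP-1, ATF and small MAF list (26.7%), namely Cebpb, Crem, Fosl1 and Mafk. In the ATF4, serine and one-carbon list taken up below, 5 of 28 matched genes held it (17.9%). Shares were 14.3% in the list of ubiquitin and protein quality control and 12% in that of ribosome biogenesis. Hmox1, Slc7a11, Srxn1 and Nqo1 were not among the holders. A gene without a matched promoter could not be one. The AP-1 letters were found in 5 of the 25 matched NRF2, glutathione and thioredoxin genes (20%), against 5.15% of tested genes. These were Srxn1 and Ephx1, Gstp1, Me1 and Prdx1, of which all but Srxn1 also held the antioxidant core. The 2 shares of this list are therefore not separate. In the haem and iron list the AP-1 letters were found in 1 of 25 matched genes (4%). They were found in 0 of 15 matched genes of the AP-1, ATF and small MAF list. The ATF/CREB palindrome was found in 3 of those 15 (20%), which were Crem, Jund and Maff, against 2.69% of tested genes. Among genes at least 2-fold higher in RM kidneys, 14.4% held the antioxidant core, 7.92% the AP-1 letters and 3.51% the ATF/CREB palindrome. Among genes at least 2-fold lower the shares were 11.1%, 4.55% and 0.909%. A match gives letters in a window and not a bound site.

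The amino acid stress response and the machinery of protein synthesis were high. Of 31 genes of the ATF4 response and of serine and one-carbon synthesis, 23 were higher and 3 lower (median 1.37). Trib3, a pseudokinase induced by ATF4, had 203, 273 and 497 normalised reads in RM kidneys and 9.12, 25.2 and 49.6 in Sham kidneys, with no overlap (3.56 ± 0.38, limma adjusted p = 2.7e-07). Mthfd2, a mitochondrial folate enzyme, rose by 2.52 ± 0.29, Asns, asparagine synthetase, by 1.45 ± 0.17, Ddit3, the factor CHOP, by 2.10 ± 0.22 and Ppp1r15a, which restores translation after stress, by 2.91 ± 0.22. Pck2 and Cth, both on the same list, were lower against all Sham libraries (-0.59 and -0.61), and both calls were lost against Sham 1 and Sham 6. Of 19 aminoacyl-tRNA synthetases found in the table, of 39 looked up, 15 were higher and 0 lower (median 0.64). The largest rise was that of Cars, for cysteine, at 1.5 ± 0.12; Tars1, for threonine, rose by 1.30 ± 0.12 and Nars1, for asparagine, by 1.09 ± 0.09.

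Ribosome assembly moved almost as a block. Of 28 genes of ribosome biogenesis, 27 were higher and 0 lower, all 27 with both control sets, and 25 had no overlap between the groups. The median change was 1.07 and the changes ran between 0.03 for Nop16 and 1.99 for Utp20. Wdr43, a subunit of the particle that processes the small ribosomal RNA, had 4527, 6780 and 7302 normalised reads in RM kidneys and 1422, 1584 and 1907 in Sham kidneys (1.98 ± 0.12, limma adjusted p = 3.2e-10). Sham libraries were tightly grouped, and RM 1 was the lowest of the RM libraries. Noc3l, an assembly factor of the large subunit, rose by 1.42 ± 0.10, the nucleolar helicase Ddx21 by 1.47 ± 0.11, Nop56, of the snoRNA particles, by 1.53 ± 0.15 and nucleolin, Ncl, by 1.13 ± 0.11. Over HS kidneys 11 of the 28 were higher and 0 lower, where 23.8% of all rows passed (11.1% higher and 12.6% lower), with a median of 0.26.

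**Figure D2:**
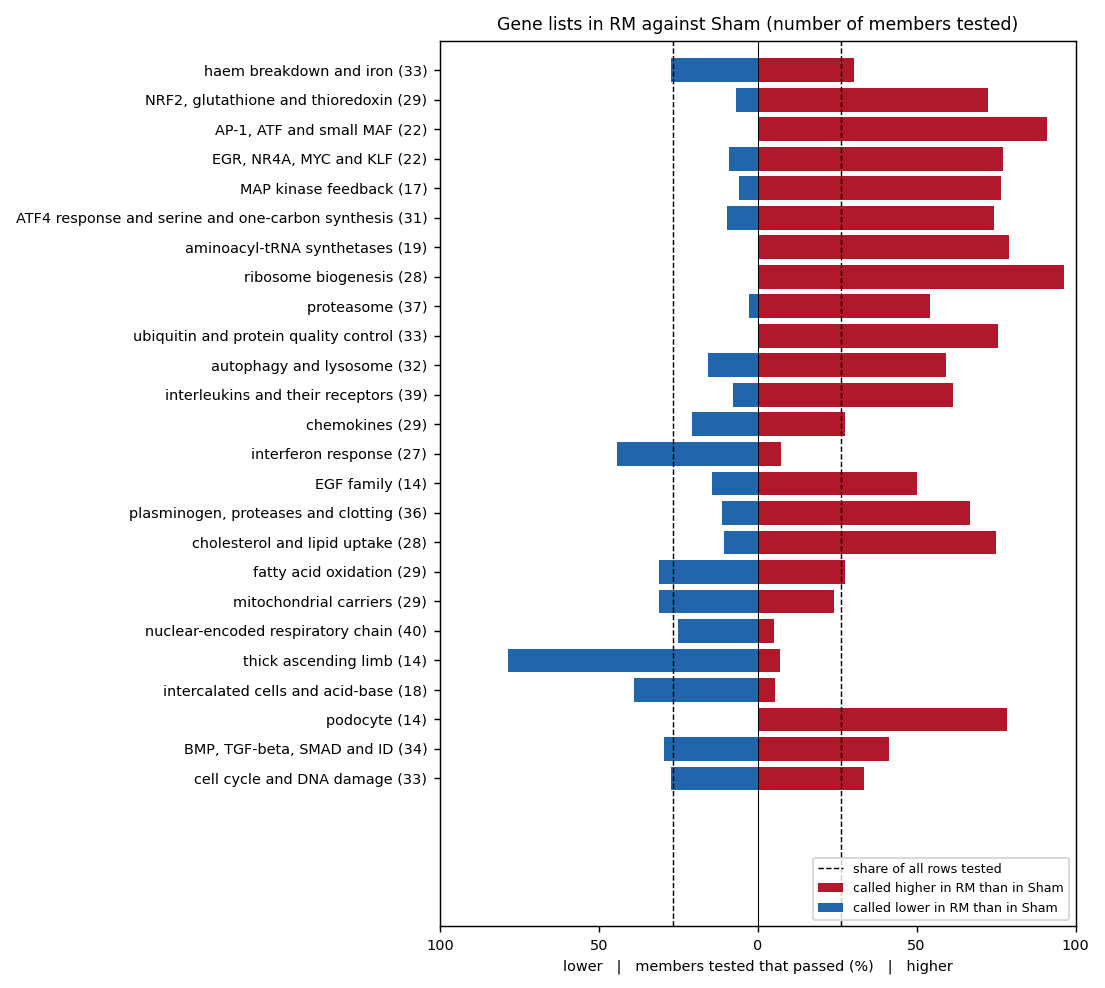
Share of tested members (%) that passed as higher (right) or lower (left) in RM over Sham kidneys in 25 gene lists, with dashed lines at the background of 26.2% higher and 26.8% lower. Ribosome biogenesis, with 27 of 28 higher, and the thick ascending limb, with 11 of 14 lower, lie at the ends.

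Protein breakdown and repair were higher as well. Of 33 genes of ubiquitin and protein quality control, 25 were higher and 0 lower (median 0.62), and 14 passed with the name letter as a covariate. Zfand2a, an arsenite-inducible protein of the proteasome that was chosen after its values were seen, had 29101, 34968 and 82453 normalised reads in RM kidneys and 462, 660 and 926 in Sham kidneys. RM 3 was the highest, and all RM libraries lay far above Sham (5.99 ± 0.30, limma adjusted p = 2.2e-11). Sqstm1, the autophagy receptor p62, rose by 2.41 ± 0.19 and Nploc4, a partner of the segregase VCP, by 1.16 ± 0.10. Bag3, a co-chaperone of selective autophagy, had 2333, 2916 and 9309 in RM kidneys and 1104, 1136 and 1383 in Sham kidneys (1.49 ± 0.25, limma adjusted p = 4.9e-05). Hsph1, the large heat shock protein whose promoter is shown above, had 7090, 10001 and 47024 in RM kidneys and 2486, 3504 and 7568 in Sham kidneys, so that the groups overlapped; the change of 1.69 ± 0.43 (limma adjusted p = 0.0024) did not pass with the name letter as a covariate. For Zfand2a, Bag3 and Hsph1 alike, RM 3 stood well above the other RM libraries. The heat shock element was found in 3 of 28 matched genes of this list (10.7%), against 0.393% of tested genes. The holders were Hspd1, Hspe1 and Hsph1. Whether the windows of different genes share bases was not checked, so the 3 may not be separate sites.

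Proteasome subunits changed little in size: 20 of 37 were higher and 1 lower with a median of 0.20, 8 were higher and 3 lower under upper quartile scaling, and 9 were higher with the name letter as a covariate. Psmd1, a regulatory subunit, rose by 0.62 ± 0.06 (limma adjusted p = 1.6e-07), and Psmd5, an assembly chaperone of the cap, by 1.30 ± 0.15. In the lysosome list 19 of 32 were higher and 5 lower (median 0.34). Ctsl and Ctsd, lysosomal proteases, rose by 1.46 ± 0.20 and 1.05 ± 0.13. Mitf, one of the factors that switch lysosomal genes on, had 170, 254 and 354 in RM kidneys and 439, 682 and 892 in Sham kidneys (-1.37 ± 0.18, limma adjusted p = 4.5e-06). Sat1, which acetylates polyamines, rose by 1.59 ± 0.19.

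Il6, Lif, the receptor chain Il6st that they share and the oncostatin M receptor rose, while Il1b and Tnf did not pass over Sham. Of 39 interleukins and receptors, 24 were higher and 3 lower (median 1.13). Il6 had 306, 578 and 2183 normalised reads in RM kidneys, 3.2, 33.2 and 115 in HS kidneys and 6.86, 29.6 and 38.1 in Sham kidneys. No Sham or HS library reached the lowest RM value, while the RM-HS libraries, with 114, 319 and 320.1, overlapped RM. RM exceeded Sham by 4.86 ± 0.65 (limma adjusted p = 4.3e-06) and HS by 4.69 ± 0.68 (limma adjusted p = 6.2e-05). Lif, a relative that signals through the same receptor chain, had 237, 620 and 1047 in RM kidneys and 5.14, 12.2 and 21.5 in Sham kidneys (5.52 ± 0.41, limma adjusted p = 3.9e-09). The shared receptor chain Il6st rose by 1.69 ± 0.14, the oncostatin M receptor Osmr by 2.80 ± 0.16 and Socs3, which shuts this signal off, by 3.15 ± 0.39. Not every cytokine on the list rose: Ctf1, cardiotrophin, of the IL-6 family, changed by -1.11 ± 0.13 (limma adjusted p = 6e-07), and Il15 by -1.0 ± 0.16 (limma adjusted p = 3.8e-05). Il1b, with 570, 682 and 869 in RM kidneys and 535, 1040 and 1479 in Sham kidneys, and Tnf, with 62.1, 126 and 312 against 108, 238 and 426, overlapped between the groups and did not pass (limma adjusted p = 0.27 and 0.17). Over HS kidneys, with 80.1, 239 and 435, Il1b was higher in RM with no overlap (1.74 ± 0.34, limma adjusted p = 0.0011). For Tnf the difference from HS was 1.13 ± 0.43 and did not pass (limma adjusted p = 0.062). Tnfrsf12a, the receptor of TWEAK, rose by 2.92 ± 0.29, and its difference from HS kidneys was 0.18 ± 0.31, which did not pass.

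Chemokines as a list did not stand out from the shares of all rows. Of 29, 8 were higher and 6 lower, with both control sets 6 were higher and 1 lower, and with the name letter as a covariate 7 were higher and 0 lower; the median was -0.01, and 0.01 under TMM scaling. Cxcl1, which attracts neutrophils, had 1161, 1726 and 15096 normalised reads in RM kidneys and 156, 310 and 1078 in Sham kidneys, with no overlap (3.04 ± 0.67, limma adjusted p = 0.00078). Cxcl2, its neighbour in the genome, changed by 2.37 ± 0.81 (limma adjusted p = 0.018), a difference that was 1.85 and did not pass without Sham 1. Ccl4, an attractant of macrophages and T cells, was lower, with 80.8, 161 and 256 in RM kidneys and 468, 850 and 1558 in Sham kidneys (-2.43 ± 0.52, limma adjusted p = 0.00063), and Ccl3, a related CC chemokine, changed by -1.58 ± 0.41. Neither fall passed against Sham 1 and Sham 6 or with the name letter as a covariate. Ccl2, the monocyte attractant, overlapped between RM and Sham kidneys (1.17 ± 0.68, limma adjusted p = 0.15) but exceeded HS by 3.01 ± 0.71 (limma adjusted p = 0.0044). The neutrophil markers rose, 5 of 5 with both control sets, and summed to 5017, 10913 and 20508 in RM kidneys against 897, 1974 and 4743 in Sham kidneys. Among them Cxcr2, the receptor of Cxcl1, rose by 2.97 ± 0.39 and Mmp8, a collagenase stored in neutrophils, by 3.15 ± 0.50. The part of these cells in the cytokine values was not tested. Macrophage markers summed to 4929, 5672 and 6571 in RM kidneys and 3596, 5648 and 8696 in Sham kidneys.

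More interferon-induced genes were lower than higher over all Sham libraries. Of 27, 12 were lower and 2 higher (median -0.47), and 5 were lower with both control sets. With the name letter as a covariate 3 were lower and 2 higher, when 2126 of all 15954 rows were lower and 2425 higher, so the list did not stand out in that fit. Mx2, an antiviral GTPase, had 178, 294 and 380 normalised reads in RM kidneys and 624, 1902 and 4102 in Sham kidneys, with no overlap (-2.55 ± 0.38, limma adjusted p = 1.4e-05). Usp18, which dampens the interferon receptor, changed by -2.35 ± 0.37 (limma adjusted p = 2.3e-05). Irf7, a factor that amplifies the response, changed by -1.35 ± 0.37, a call that was lost against Sham 1 and Sham 6 and with the name letter as a covariate. Over HS kidneys 3 of the 27 were higher and 0 lower.

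Several ligands of the EGF receptors rose while the receptor chains moved apart. Of 14 genes of the family, 7 were higher and 2 lower (median 0.61). Hbegf, a ligand released by shedding, rose by 3.91 ± 0.26 and Nrg1, a ligand of ERBB3 and ERBB4, by 2.80 ± 0.19. Egf itself, made in the distal nephron, had 21114, 25538 and 38138 normalised reads in RM kidneys and 19407, 49764 and 59975 in Sham kidneys. The groups overlapped, and the difference of -0.62 ± 0.24 (limma adjusted p = 0.039) did not pass on leaving out any 1 of RM 2, RM 3, RM 4, RM 6, Sham 1, Sham 3, Sham 4 or Sham 6, with adjusted p between 0.06 and 0.0921. Egfr had 228, 662 and 852 normalised reads in RM kidneys and 82.9, 103 and 139 in Sham kidneys; RM 1 was by far the lowest of the RM libraries and still above all Sham libraries (2.47 ± 0.26, limma adjusted p = 2.7e-07). Erbb2, the partner chain with no ligand of its own, had 527, 769 and 946 in RM kidneys, 1462, 1918 and 2109 in HS kidneys and 1212, 1654 and 1980 in Sham kidneys. RM libraries lay below all HS and all Sham libraries, by -1.10 ± 0.13 over Sham (limma adjusted p = 1.3e-06) and -1.29 ± 0.14 over HS (limma adjusted p = 2.7e-06).

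Clotting, plasminogen and matrix genes were largely higher, 24 of 36 with 4 lower (median 1.56). F3, tissue factor, which starts clotting, had 10955, 13399 and 18192 normalised reads in RM kidneys and 641, 1018 and 3206 in Sham kidneys (3.49 ± 0.30, limma adjusted p = 2.5e-08), and the change was 2.36 against Sham 1 and Sham 6. Plaur, the urokinase receptor, rose by 3.01 ± 0.37, Timp1, an inhibitor of metalloproteases, by 2.59 ± 0.44 and Thbs1, thrombospondin, by 2.00 ± 0.28. Adamts1, a secreted protease, had 6667, 14456 and 22614 in RM kidneys and 667, 755 and 859 in Sham kidneys (4.13 ± 0.25, limma adjusted p = 2.7e-10). F5, a clotting cofactor, was lower by -1.76 ± 0.31 (limma adjusted p = 8.7e-05). Both stromelysins, which were chosen after their values were seen, set RM 1 apart: Mmp3 had 9.53 in RM 1 and between 195 and 341 in the other RM libraries, against 0, 4.21 and 8.6 in Sham kidneys. Mmp10 had 8.47 in RM 1 and between 112 and 326 in the others, against 0, 1.45 and 3.8. The changes were 5.19 ± 0.87 for Mmp3 and 5.69 ± 0.75 for Mmp10, and 5.97 and 6.39 without RM 1. Rnd1, an atypical small GTPase that loosens actin and adhesion, rose by 3.82 ± 0.31.

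**Figure D3:**
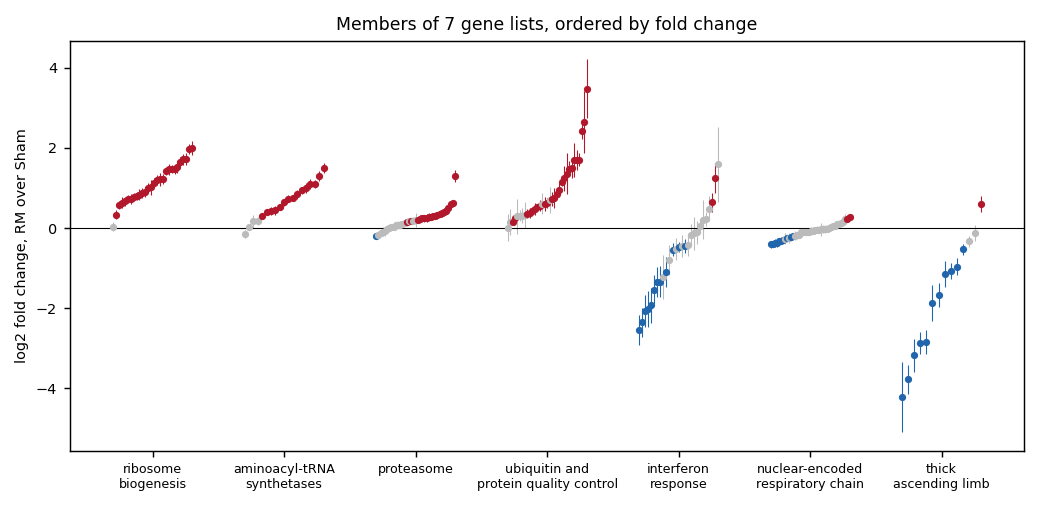
Change in RM over Sham kidneys (log2 scale, with standard error) of each tested member of 7 lists, in red where it passed as higher, in blue where it passed as lower and in grey where it did not pass. The ribosome biogenesis members form a narrow band between 0.03 and 1.99, while the thick ascending limb members reach down to -4.22 for Cldn14.

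Slc2a5, Tkfc, Pklr, Acly and Fasn, of fructose and pyruvate metabolism and fat synthesis, were higher in RM kidneys than in both Sham and HS kidneys. They stand as single genes, since no list of sugar genes was tested, and all but Fasn, as well as Khk below, were chosen after their values were seen. Slc2a5 (chromosome 5, 167142182 to 167174206, rn6), the fructose transporter GLUT5, had 18042, 25047 and 30384 normalised reads in RM kidneys, 999.9, 1338 and 1381 in HS kidneys and 1876, 2615 and 3101 in Sham kidneys. The RM libraries stood above all others, by 3.23 ± 0.19 over Sham (limma adjusted p = 2.4e-10) and by 4.32 ± 0.20 over HS (limma adjusted p = 4.5e-11). Tkfc, a kinase that acts late in fructose use, rose by 1.48 ± 0.13 over Sham and 1.72 ± 0.13 over HS, and Pklr, the liver-type pyruvate kinase, by 1.93 ± 0.24 and 2.15 ± 0.25. Khk, the kinase that starts fructose use, rose by 1.02 ± 0.11 over HS (limma adjusted p = 3.9e-06). Over Sham its difference was 0.28 ± 0.11 (limma adjusted p = 0.033), which did not pass without any 1 of RM 2, RM 3, RM 5, Sham 1, Sham 3 or Sham 6 (adjusted p between 0.0531 and 0.0862). Fasn, fatty acid synthase, had 9834, 12340 and 18425 in RM kidneys, 768, 892 and 1101 in HS kidneys and 691, 1116 and 1691 in Sham kidneys (3.54 ± 0.23 over Sham, limma adjusted p = 5.7e-10, and 3.78 ± 0.24 over HS, 3.4e-09). Acly, which makes cytosolic acetyl-CoA, rose by 2.80 ± 0.13 over Sham (limma adjusted p = 1.2e-11) and 2.42 ± 0.14 over HS. In the RM-HS libraries Slc2a5 had 3526, 7706 and 9780 and Fasn had 2431, 3768 and 7705, between the RM and Sham values.

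Hk2, the hexokinase of glucose-consuming cells, had 847, 1362 and 2011 normalised reads in RM kidneys, 142, 188 and 457 in HS kidneys and 175, 207 and 321 in Sham kidneys (2.47 ± 0.26 over Sham, limma adjusted p = 2.5e-07, and 2.49 ± 0.27 over HS). No HS or Sham library reached the lowest RM value, while the RM-HS libraries, with 740, 779 and 1153, overlapped RM. Of 28 genes of cholesterol synthesis and lipid uptake, 21 were higher and 3 lower (median 0.96) over Sham, and 12 were higher and 1 lower over HS. Plin2, the coat of lipid droplets, rose by 3.87 ± 0.26 over Sham; its difference from HS was 0.72 ± 0.27 (limma adjusted p = 0.059).

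Fatty acid oxidation genes were near the shares of all rows, with 8 of 29 higher and 9 lower (median -0.10), or 5 higher and 15 lower under upper quartile scaling. Cpt1a, Cpt1b and Cpt2, carnitine palmitoyltransferases that admit fatty acids to mitochondria, were lower. Cpt1b, the muscle-type form, had 163, 203 and 752 normalised reads in RM kidneys, 317, 427 and 605 in HS kidneys and 1430, 2140 and 2430 in Sham kidneys (-2.93 ± 0.29 over Sham, limma adjusted p = 1.2e-07). The difference of Cpt1b from HS was -0.68 ± 0.30 and did not pass (limma adjusted p = 0.11). Cpt1a changed by -0.90 ± 0.15 over Sham and -0.63 ± 0.16 over HS, and Cpt2 by -0.79 ± 0.14 and -0.99 ± 0.15. The carriers Slc25a42, for coenzyme A, and Slc25a34 changed by -1.57 ± 0.19 and -2.13 ± 0.28 over Sham, and the lactate carrier Slc16a1 and the glucose carrier Slc2a2 rose by 3.52 ± 0.38 and 3.36 ± 0.35, or by 2.25 and 2.16 against Sham 1 and Sham 6. Nuclear-encoded respiratory chain genes had 2 of 40 higher and 10 lower (median -0.08); 0 were higher and 23 lower under upper quartile scaling, and 1 was lower with the name letter as a covariate.

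**Figure D4:**
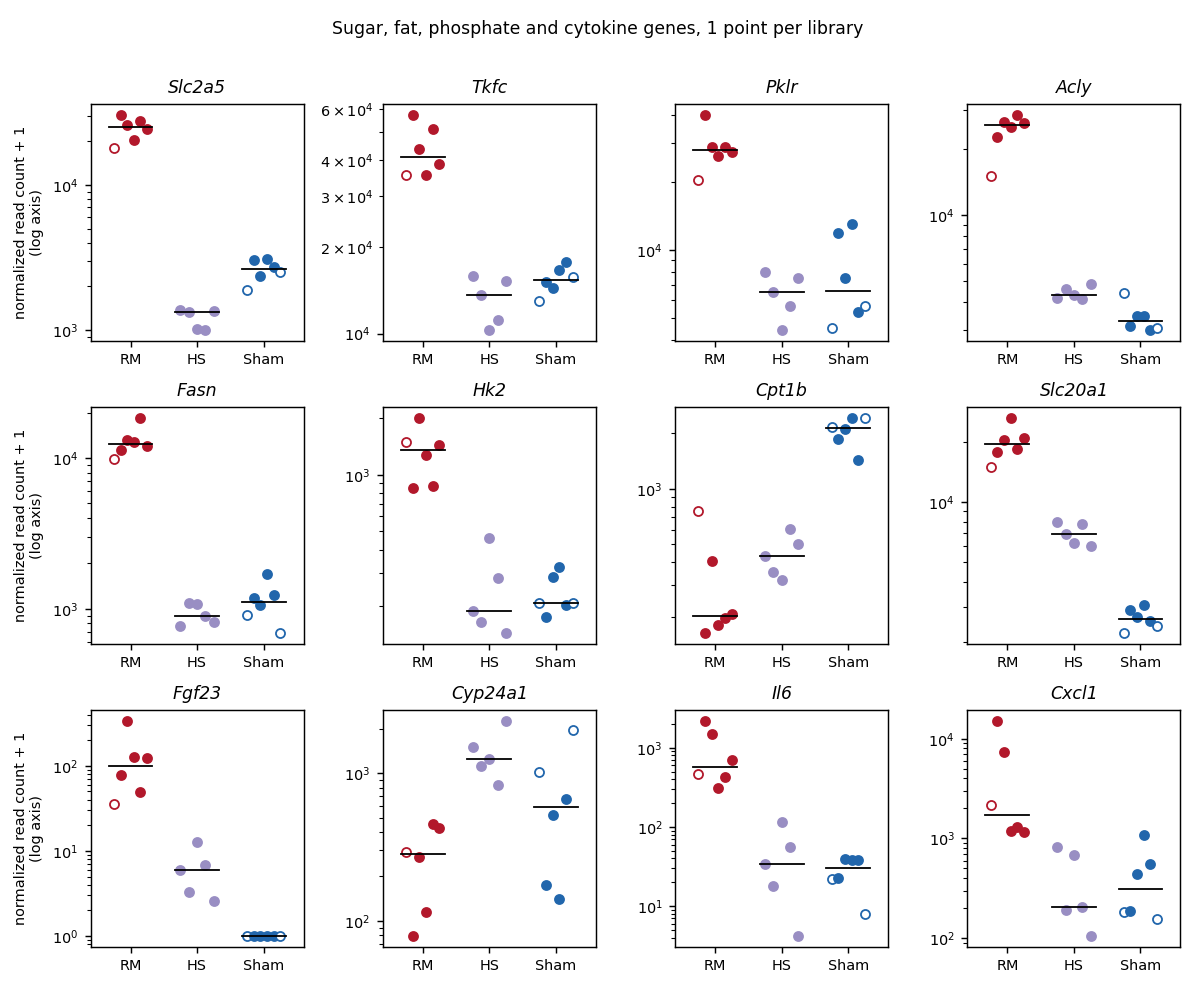
Normalised read counts plus 1 (log axis) of 12 genes of sugar, fat, phosphate and inflammation in RM, HS and Sham libraries, from left to right, 1 point per library, with the median as a line and open circles for RM 1, Sham 1 and Sham 6. For Slc2a5, Fasn, Hk2 and Il6 every RM library lies above every HS and Sham library, and Fgf23 is at 0 in every Sham library.

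Fgf23 and the phosphate importer Slc20a1 rose in RM kidneys, whereas the values of Slc34a1, Slc34a3, Kl and Cyp27b1 depended on the controls. Fgf23, the bone hormone that makes the kidney excrete phosphate, was read in RM kidneys at 34.9, 99.8 and 336 normalised reads and in HS kidneys at 1.6, 4.99 and 11.7, and was at 0 in all Sham libraries. The RM-HS libraries had 8.15, 41.4 and 78.4. With 714 reads over the RM libraries, the RM mean was at least 227-fold higher than the limit of 3 reads over the Sham group allows, or at least 149.6-fold without RM 3, the highest library. Over HS the change was 4.14 ± 0.59 (limma adjusted p = 5.4e-05). Slc20a1, a phosphate importer found in most cells, had 15067, 19430 and 26382 in RM kidneys, 6001, 6952 and 7916 in HS kidneys and 2213, 2595 and 3073 in Sham kidneys. RM, HS and Sham libraries did not overlap and RM was the highest of the 3, by 2.91 ± 0.13 over Sham (limma adjusted p = 6.7e-12) and by 1.5 ± 0.14 over HS (limma adjusted p = 5.1e-07). Of the sodium-phosphate transporters, Slc34a2, best known from lung and intestine, rose by 1.64 ± 0.27 over Sham. Its difference from HS was -0.58 ± 0.29 and did not pass. Slc34a1, the main transporter of the proximal brush border, rose by 1.0 ± 0.19 against all Sham libraries, but the difference against Sham 1 and Sham 6 was 0.37 and did not pass. Slc34a3 changed by 3.65 ± 0.73, by 4.24 without Sham 1, by 4.27 without Sham 6 and by 0.61 against Sham 1 and Sham 6.

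The coreceptor of FGF23, Kl, had 2355, 2905 and 3587 normalised reads in RM kidneys and 1015, 2294 and 4716 in Sham kidneys, and the sign depended on the controls: 0.30 ± 0.25 (limma adjusted p = 0.31) with all Sham libraries and -0.54 (0.017) with Sham 1 and Sham 6. Cyp27b1, which activates vitamin D, likewise differed by 1.90 ± 0.59 (limma adjusted p = 0.011) with all Sham libraries and by -0.22 (0.77) with Sham 1 and Sham 6. Cyp24a1, which destroys it, had 77.8, 281 and 453 in RM kidneys, 838, 1241 and 2267 in HS kidneys and 140, 592 and 1959 in Sham kidneys. RM lay below all HS libraries (-2.53 ± 0.57, limma adjusted p = 0.0029) and overlapped Sham (-1.16 ± 0.54, 0.079), although the fall passed without Sham 2 (-1.47), without Sham 4 (-1.53) and against Sham 1 and Sham 6 (-2.64). Trpv5, the calcium channel of the distal tubule, rose by 3.86 ± 0.36 over Sham; its difference from HS was 0.25 ± 0.38 and did not pass.

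Genes of the thick ascending limb were mostly lower. Of 14 genes of the limb, 11 were lower and 1 higher over Sham (median -1.41), 8 of them lower with both control sets. Over HS kidneys 2 were higher and 1 lower, with a median of 0.05. Slc12a1, the cotransporter that furosemide blocks, changed by -1.67 ± 0.29, and Umod, uromodulin, by -1.08 ± 0.20. Cldn14, a tight junction protein that limits calcium uptake there, had 0, 4.76 and 12.5 normalised reads in RM kidneys and 32.3, 67.7 and 139 in Sham kidneys (-4.22 ± 0.87, limma adjusted p = 0.00045). Ppp1r1a, a phosphatase inhibitor of this segment, had 17946 in RM 1 and between 2165 and 2922 in the other RM libraries, against 36717, 47897 and 52281 in Sham kidneys (-3.77 ± 0.36, limma adjusted p = 9.4e-08). The 5 marker genes of the limb summed to 87519, 106360 and 198000 in RM kidneys and 174310, 287550 and 293080 in Sham kidneys. Sostdc1, an inhibitor of BMP and WNT made in the distal nephron, changed by -2.84 ± 0.31.

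Of 14 aquaporin and vasopressin genes, 7 were lower and 5 higher, with 4 lower and 2 higher with both control sets. Aqp2, the vasopressin-regulated water channel, had 23921 normalised reads in RM 1 and between 5926 and 9934 in the other RM libraries, against 17636, 34211 and 57670 in Sham kidneys, so that only RM 1 overlapped (-2.04 ± 0.33, limma adjusted p = 4.1e-05). Avpr2, the vasopressin receptor, had 12.1, 49.7 and 91 in RM kidneys, 134, 161 and 197 in HS kidneys and 272, 544 and 746 in Sham kidneys. RM lay below both with no overlap, by -3.57 ± 0.42 over Sham (limma adjusted p = 8.9e-07) and -2.0 ± 0.44 over HS (limma adjusted p = 0.0025), and the RM-HS libraries, with 17.4, 25.7 and 44.2, overlapped RM. Adcy6, the cyclase behind that receptor, changed by -1.15 ± 0.12, and Aqp6, of intercalated cells, by -1.54 ± 0.23. Nr3c2, the mineralocorticoid receptor, had 142, 236 and 365 in RM kidneys and 439, 631 and 856 in Sham kidneys (-1.40 ± 0.20, limma adjusted p = 8.7e-06). The kinases Wnk4 and Stk39, which regulate distal salt transport, changed by -1.22 ± 0.16 and -1.20 ± 0.17. The potassium channel Kcnj10 changed by -3.03 ± 0.52 and the ammonia channel Rhbg by -1.32 ± 0.20. Over HS kidneys the differences of Aqp2 (-0.26), Aqp6 (0.23), Nr3c2 (-0.01), Wnk4 (-0.45), Stk39 (0.13), Kcnj10 (-1.11) and Rhbg (0.45) did not pass. That of Adcy6 did (-0.35 ± 0.12, limma adjusted p = 0.044). The 6 principal cell markers summed to 11445, 12359 and 37142 in RM kidneys against 32819, 55539 and 87831 in Sham kidneys, and 7 of 18 intercalated cell and acid-base genes were lower with 1 higher.

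Of 11 genes of urea transport and osmolytes, 4 were higher and 3 lower, and with both control sets 4 were higher and 1 lower. Slc5a3, which imports inositol, had 4004, 5636 and 15875 normalised reads in RM kidneys and 556, 797 and 1239 in Sham kidneys (2.97 ± 0.34, limma adjusted p = 7.2e-07). Slc6a12, which imports betaine, had 42.2, 71.4 and 262 in RM kidneys and 310, 678 and 789 in Sham kidneys (-2.54 ± 0.40, limma adjusted p = 2.7e-05). Both separated the groups in opposite directions. Slc14a2, the urea transporter of the inner medulla, ran between 0 and 1133 in RM kidneys and between 984 and 2111 in Sham kidneys; its change of -5.48 ± 1.52 varied between -6.51 without RM 1 and -4.48 without RM 5, and did not pass against Sham 1 and Sham 6, by edgeR or DESeq2, or with the name letter as a covariate.

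Proximal tubule and podocyte genes depended on which Sham libraries served as controls. Slc5a2 changed by 4.85 ± 0.97 over all Sham libraries and by 0.83 over Sham 1 and Sham 6; leaving out single Sham libraries gave between 4.18 without Sham 5 and 5.67 without Sham 6. Slc4a4, the bicarbonate exit of the proximal tubule, rose by 3.14 ± 0.66, by 3.76 without Sham 1, but the difference over Sham 1 and Sham 6 was 0.35 and did not pass. Nphs1, nephrin of the podocyte, changed by 2.16 ± 0.43 and by 0.65. Of 14 podocyte genes, 11 were higher over all Sham libraries and 2 over Sham 1 and Sham 6, with medians of 0.93 and 0.10. Podocyte markers summed to 9633, 11478 and 12605 in RM kidneys against 2219, 5025 and 9575 in Sham kidneys. Fewer members of the proximal lists were higher with both control sets than with all Sham libraries: 9 against 15 of 22 glucose, phosphate and gluconeogenesis genes, 4 against 10 of 25 organic anion and cation transporters, 3 against 9 of 12 protein uptake genes and 2 against 6 of 17 amino acid transporters. Abcc2, the exporter of conjugated anions, had 5430 in RM 1 and between 16078 and 23053 in the other RM libraries, against 615, 1106 and 1530 in Sham kidneys, and rose by 3.87 ± 0.32 over all Sham libraries and by 3.48 over Sham 1 and Sham 6. Cldn3, a junction protein of the nephron, had 646, 935 and 1389 in RM kidneys, 2559, 2960 and 3567 in HS kidneys and 1485, 3321 and 4623 in Sham kidneys, below both (-1.72 ± 0.24 over Sham, -1.08 against Sham 1 and Sham 6, and -1.66 ± 0.25 over HS).

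Of the 170 genes named with values, 42 moved by more than 1.5-fold with Sham 1 and Sham 6 as controls. Beside those given so, the change was smaller in size for Avpr2 (-2.90), Ccl3 (-0.49), Ctsl (0.86), Clock (1.59), Hrh3 (-3.88), Mmp10 (4.90), Ptgs1 (-1.03) and Rd3l (-4.45). Among stress and thiol genes it was larger for Slc7a11 (9.68), Srxn1 (6.22), Hp (3.94), Fosl1 (7.53), Fos (3.94), Egr1 (3.27), Trib3 (4.31) and Mthfd2 (3.25). It was also larger for the inflammatory genes Il6 (5.77), Cxcl1 (4.03), Cxcl2 (4.52), Tnfrsf12a (3.86) and Timp1 (3.55), and for Hbegf (4.55), Cdkn1a (3.86), Nfil3 (4.72), Lypd8 (8.29), Vgf (7.77), Kcnj10 (-3.88) and Cldn14 (-4.81). For Il1b, which passed with neither control set, the difference was 0.27 in place of -0.44. With the name letter as a covariate 20 of the 170 moved as far. The change was then smaller for Mmp3 (3.44), Mmp10 (5.10), Fosl1 (6.18), Vgf (6.32), Plin2 (3.25), Abcc2 (3.28), Slc16a1 (2.84), Cyp27b1 (1.17), Ccl4 (-1.17), Ccl3 (-0.85), F5 (-1.14), Slc14a2 (-4.0), Ppp1r1a (-2.81), Ptger1 (-2.02), Edn3 (-2.80) and Trim29 (-3.65). It was larger for Hephl1 (7.38), Cxcl1 (3.73), Cxcl2 (3.72) and Rnd1 (4.44).

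**Figure D5:**
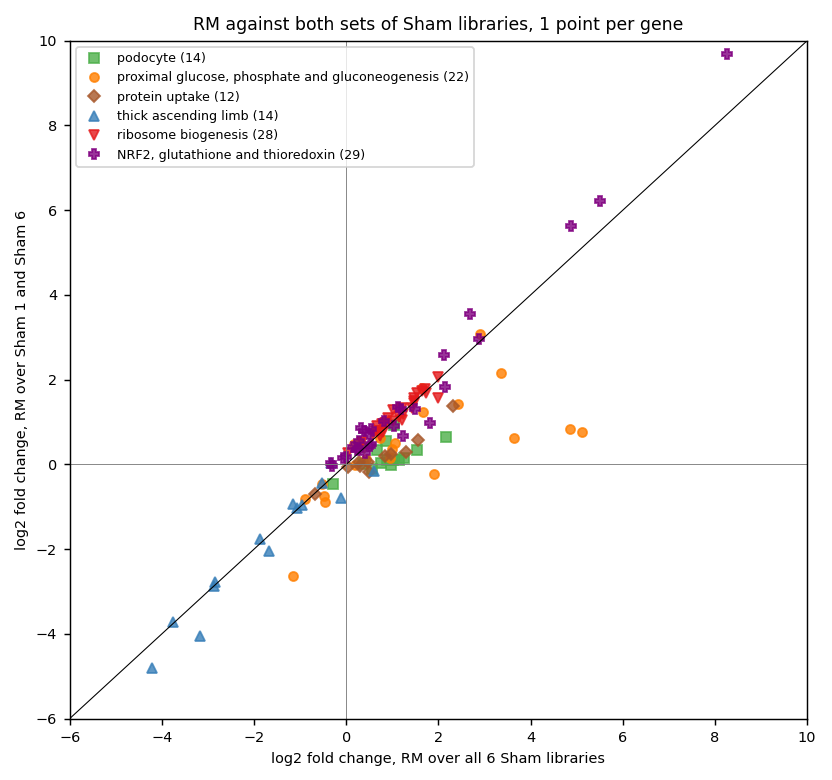
Change in RM kidneys (log2 scale) over Sham 1 and Sham 6 against the change over all 6 Sham libraries for the members of 6 lists, 1 point per gene, with the diagonal as a line. Slc5a2 falls far off the diagonal, at 4.85 with all Sham libraries and 0.83 with Sham 1 and Sham 6, while the ribosome biogenesis members lie near it.

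BMP signalling genes moved both ways, 14 of 34 higher and 10 lower, with a median of 0.13 that was -0.01 under upper quartile scaling. Id4, a target of BMP, Smad6 and Bmp3 were lower: Id4 had 471, 765 and 1289 normalised reads in RM kidneys and 2274, 3261 and 4137 in Sham kidneys (-2.04 ± 0.27, limma adjusted p = 3.3e-06), Smad6, an inhibitory SMAD, changed by -1.79 ± 0.23 and Bmp3, an atypical ligand, by -1.66 ± 0.21. Id1 changed by -1.04 ± 0.20, a call that was lost against Sham 1 and Sham 6 and with the name letter as a covariate. Smad9, one of the SMADs that carry the BMP signal, was among the 8 largest falls, with 0, 1.27 and 14.8 in RM kidneys and 51.4, 94 and 143 in Sham kidneys. Smad1, another of them, rose by 1.26 ± 0.12, Tgif1, a corepressor of TGF-beta targets, by 2.91 ± 0.20 and Bambi, a decoy receptor, by 1.87 ± 0.15.

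Plk3, Gadd45a and Cdkn1a rose, while Mcm2 and Phlda3 fell. Of 33 genes of the cell cycle and DNA damage, 11 were higher and 9 lower (median -0.27), and Phlda3 was the lowest. Plk3, a stress-induced kinase, had 2815, 4134 and 4429 normalised reads in RM kidneys, 415, 507 and 548 in HS kidneys and 275, 326 and 480 in Sham kidneys. RM libraries were above all HS and Sham libraries, by 3.49 ± 0.16 over Sham (limma adjusted p = 6.7e-12) and 2.99 ± 0.17 over HS (limma adjusted p = 5e-10), and the RM-HS libraries, with 3241, 5173 and 5775, overlapped RM. Gadd45a, a DNA damage-induced gene, rose by 2.08 ± 0.14 over Sham and 1.83 ± 0.14 over HS, and Cdkn1a, the inhibitor p21, by 2.99 ± 0.27 over Sham. Mcm2, of the replication helicase, had 704, 714 and 797 in RM kidneys and 1129, 1199 and 1524 in Sham kidneys (-0.76 ± 0.09, limma adjusted p = 1.1e-06), and Mki67, a marker of dividing cells, overlapped (-0.47 ± 0.31, 0.22).

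Of 16 clock genes 7 were higher and 3 lower (median 0.60). Nfil3, a repressor in the clock, rose by 3.63 ± 0.35, Clock by 2.19 ± 0.22 and Bhlhe40 by 1.63 ± 0.16. The 3 lower genes were Tef, Dbp and Per3, and 0 were lower with the name letter as a covariate. Adm, adrenomedullin, a vasodilator, had 887, 1447 and 1830 normalised reads in RM kidneys, 254, 266 and 334 in HS kidneys and 94.8, 147 and 218 in Sham kidneys, with no overlap among these 3 groups (3.22 ± 0.20 over Sham, limma adjusted p = 3.8e-10). Edn3, an endothelin, had 0, 6.59 and 19.1 in RM kidneys and 42, 62.6 and 112 in Sham kidneys (-3.42 ± 0.63, limma adjusted p = 0.00015). Ptger1, a prostaglandin E receptor, changed by -2.66 ± 0.42, and Ptgs1, the constitutive cyclooxygenase, by -1.63 ± 0.32, a call that was lost against Sham 1 and Sham 6.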

How the data were processed

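The labels' protocols describe stranded paired-end mRNA sequencing of rat kidney. FastQC 0.11.2, Picard 1.119, SAMtools 1.0, STAR, featureCounts of Subread 1.5.0 and DESeq2 were used with the rn6 build, per the submitters' processing notes, whose settings are not known here. The deposited signal values are read counts that the authors normalised with DESeq2 size factors, and 100% of values gave whole reads within 0.1 read. The table of 34681 rows was reduced to 15954 rows that reached 10 in 3 or more of the 20 libraries, 12967 of them with a symbol. RM was tested against Sham and HS with limma-trend (limma 3.58.1, R 4.3.3) on log2(value + 1), fitted to all 4 groups, with Benjamini-Hochberg adjustment. Recovered reads were tested with edgeR 4.0.16 and DESeq2 1.42.0 as alternatives, and the fit was checked on simulated data. Other alternatives were pseudocounts, filters, scalings, control sets, the name letter, array weights and leaving out each library.

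Members and lists were chosen with earlier results of these data known. Of the 170 genes named with values, most came from a rule: the 8 largest rises and falls, key list genes, and up to 3 members per list and direction by adjusted p; some genes that the rule picks are not reported here. The 13 outside it (Blvra, Pgd, Zfand2a, Hsph1, Mmp3, Mmp10, Slc2a5, Khk, Tkfc, Pklr, Acly, Slc34a1 and Slc34a2) were chosen after their values were seen. The list extremes in the closing observations were also picked by their values.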

Additional observations from a re-analysis of the deposited data

Results flagged for a closer look

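The highest and lowest library were looked at in 340 sets of 6 values (170 named genes in 2 groups). One of them stood apart from the other 5 in 36 sets, or 10.6%. The cut-off would be passed by about 1 in 20 sets of independent, normally distributed values. The named genes share the same libraries and many were picked by their values, so 10.6% does not measure an excess. RM 1, the RM library with an R name, accounted for 23 of the 36, and in all 23 it lay on the side of the Sham median. It was the lowest RM library for 19 genes. Among haem and thiol genes it had 109350 normalised reads of Hmox1, 446050 of Ftl1, 651 of Slc7a11, 31253 of Txnrd1, 63182 of Gclm and 7950 of Pgd. Among genes of ribosomes and protein turnover it had 4527 of Wdr43, 3555 of Ncl, 3490.5 of Psmd1, 2575 of Psmd5 and 56320 of Sqstm1. Among growth, matrix and transport genes it had 1447 of Nrg1, 228 of Egfr, 9.53 of Mmp3, 8.47 of Mmp10, 7343 of Slc2a2, 15063 of Acly, 5430 of Abcc2 and 1053 of Lexm. It was the highest for Ppp1r1a (17946), Aqp2 (23921), Wnk4 (1517) and Stk39 (2250). The part of the name letter in this was not tested, since RM 1 is the only RM library with an R name.

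RM 3 was the highest RM library for Zfand2a (82453), Hsph1 (47024), Bag3 (9309), Dusp8 (1893) and Rd3l (3.04). RM 2 was the highest for Gclc (216550) and the lowest for Plk3 (2815). Among Sham libraries, Sham 6 stood apart with 12908 normalised reads of Hmox1 and 6.86 of Il6, Sham 1 with 2717 of Il6st, Sham 2 with 5.16 of Lypd8, Sham 4 with 3.53 of Hephl1 and Sham 5 with 8796 of Txnrd1.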

How the results depend on the processing

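With the name letter as a covariate, 4551 rows passed for RM over Sham (2425 higher, 2126 lower). Among libraries named R only, where RM 1 is the lone RM library and is assumed to vary like the other groups, 766 passed (459 higher, 307 lower). With Sham 1 and Sham 6 as controls, 5250 passed, 2371 of them lower, and the sign turned for 6 named genes: Kl (-0.54) and Cyp27b1 (-0.22), which passed with one control set, and Blvra (0.21), Blvrb (-0.03), Gclc (0.16) and Il1b (0.27), which passed with neither. Leaving out 1 library at a time gave between 7828 and 8537 rows for RM over Sham (3911 to 4204 higher, 3911 to 4333 lower) and between 3026 and 3712 for RM over HS (1393 to 1767 higher, 1625 to 1945 lower). On recovered reads, edgeR gave 8122 rows and DESeq2 8502.

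Of the 170 named genes, 160 passed. Calls were lost by 11 with the name letter. With Sham 1 and Sham 6, 10 were lost beside that of Cyp27b1, whose sign also turned. Libraries named R only hold a single RM library, and calls from that fit are not compared. At most 4 calls were lost under any other setting tried, leaving out a library included. Without RM 1 none was lost. The cause was not tested. The letter R holds all Sham libraries and 1 RM library, so the letter and the group can be told apart only through that library, the HS libraries and the fit across groups. No paired analysis was possible because replicate numbers only follow the order in which samples are listed.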

Other observations

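Gene lists that the report does not take up moved unevenly. Of 15 metallothionein, zinc and glucocorticoid genes, 11 were higher and 0 lower in RM over Sham kidneys (median 0.88), whereas over HS kidneys 1 was higher and 4 were lower (median -0.48). Of 22 genes of SRF, YAP and actin, 13 were higher and 1 lower over Sham (median 0.78), and over HS 2 were higher and 5 lower (median -0.02). Claudins and junction genes had 8 of 23 higher and 7 lower over Sham, and 0 higher and 10 lower over HS. Cytochrome P450 genes had 10 of 32 higher and 10 lower over all Sham libraries, and 3 higher and 5 lower with both control sets; their extremes were Cyp4f5 at 3.07 and Cyp1a2 at -3.22 on the log2 scale. In the list of injured tubule epithelium, 11 of 22 were higher and 2 lower, and the highest was Il24, a cytokine of the IL-10 family, at 5.48. Grem1, an antagonist of BMP, was the lowest of its list at -3.38. The extremes were picked by their values and are given without a test.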
